A study of Mus musculus with 4 samples.

Results

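The 35 genes described here build the secretory pathway of an antibody-secreting plasma cell, or control it. They were listed by name, and all 35 were among the 21027 genes measured in both captures. By role, 10 belong to translocation and signal peptide cleavage at the endoplasmic reticulum (ER), 14 are chaperones and disulfide isomerases, 4 serve ER-associated degradation, 4 are a sensor and transcription factors of the unfolded protein response (UPR), and 3 are plasma cell transcription factors and a surface proteoglycan. The mice were Cxxc1flox/flox and were 6 to 8 weeks old. Group 3 innate lymphoid cells (ILC3s) were sorted from their small intestine, and RNA of single cells was captured and counted with BD Rhapsody. Cxxc1 encodes a protein that binds unmethylated CpG sites. The 4 labelled samples are 2 replicates with 2 libraries each, and all belong to this 1 genotype, so nothing below compares Cxxc1-deficient with Cxxc1-sufficient cells. What is compared are the classes of cells that the sorted material held: plasma cells, collagen-secreting stromal cells, ILC3s and T cells.

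A secreted protein enters the ER through the Sec61 channel, helped by the translocon-associated proteins (Ssr genes), and loses its signal peptide to signal peptidase. Chaperones such as BiP (Hspa5) and GRP94 (Hsp90b1) and the protein disulfide isomerases then fold it, and chains that fail are pulled back out of the ER and degraded. When unfolded chains pile up, IRE1 (Ern1), PERK and ATF6 signal to the nucleus through XBP1, ATF4 and cleaved ATF6; plasma cells are known to depend on XBP1, while fibroblast-like stromal cells secrete large amounts of collagen.

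The tagged cells of replicates 1 and 2 held 11939862 and 12141164 unique molecular identifiers (UMIs, counted molecules), and 1904 and 4180 cells passed the filters. The classes held 415 and 26 non-cycling plasma cells, 110 and 2 cycling plasma cells, 323 and 254 stromal cells, 564 and 1663 ILC3s and 261 and 1795 T cells in replicates 1 and 2. Replicate 1 and replicate 2 came from separate captures, and 7 cell index numbers occur in both. Clusters were found without the 35 genes, the other secretory gene lists and all immunoglobulin genes other than Jchain. Most ILC3s of replicate 1 (93.4%) lay in a cluster that held no cell of replicate 2. Most T cells of replicate 1 (88.5%) lay in a cluster that held 2 cells of replicate 2, with Gzmb, Ifng and Gzma among its leading genes. The stromal cells of each replicate also had mostly a cluster of their own. A difference between replicates inside those 3 classes therefore cannot be told apart from a difference between clusters. Collagen Col1a1 was at 17792 and 19182 UMIs per 1000000 non-immunoglobulin UMIs in stromal cells against 92.6 to 139 in ILC3s and T cells, Il22 at 3216 and 3417 in ILC3s, and Trac at 1111 and 1094 in T cells. Cxxc1 itself was at 43.1 and 46.3 in ILC3s, 90.2 and 79.9 in T cells and 67.1 and 54.8 in stromal cells; the labels do not say which part of the gene is removed, so its counts are no check of the deletion.

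Immunoglobulin genes took 57.1% and 59.3% of all UMIs in non-cycling plasma cells, 29.4% in cycling ones of replicate 1, and at most 0.561% in the other 3 classes. Levels are therefore given as UMIs per 1000000 non-immunoglobulin UMIs of the class, replicate 1 first. Fold changes come from one edgeR quasi-likelihood fit over the 10 sums (5 classes in 2 replicates, replicate as a block, TMM scaling), with Benjamini-Hochberg adjustment over 11492 genes and a threshold of 0.05. TMM rescales each sum, so a fitted fold is not the plain ratio of the levels. For plasma over stromal cells the fitted fold can lie below that ratio and differ from it in sign. For stromal cells over ILC3s or T cells it can lie above that ratio. The TMM factors were 0.797 and 0.874 in stromal cells, 1.25 and 1.26 in ILC3s and 1.25 and 1.12 in T cells. With replicate as a block, p-values rest on how class differences vary between these 2 replicates, with 4 residual degrees of freedom per gene. Spread borrowed across genes added 50.2 prior degrees of freedom, so it weighs more than a gene's own spread. Nothing in the labels ties the replicates to different animals, so this spread may be technical.

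The 35 genes together made up a median of 4.51% and 4.48% of a non-cycling plasma cell's non-immunoglobulin UMIs. The corresponding medians were 1.29% and 1.07% in stromal cells, 1.68% and 1.34% in ILC3s and 1.11% and 1.01% in T cells. Plasma cells were also far more spread out: in replicate 1 the interquartile range was 2.50% to 6.20% and single cells reached from 0.436% to 17.4%, while the interquartile range of ILC3s was 1.40% to 1.96%. The plasma cells at the low end are taken up again below.

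**Figure D1:**
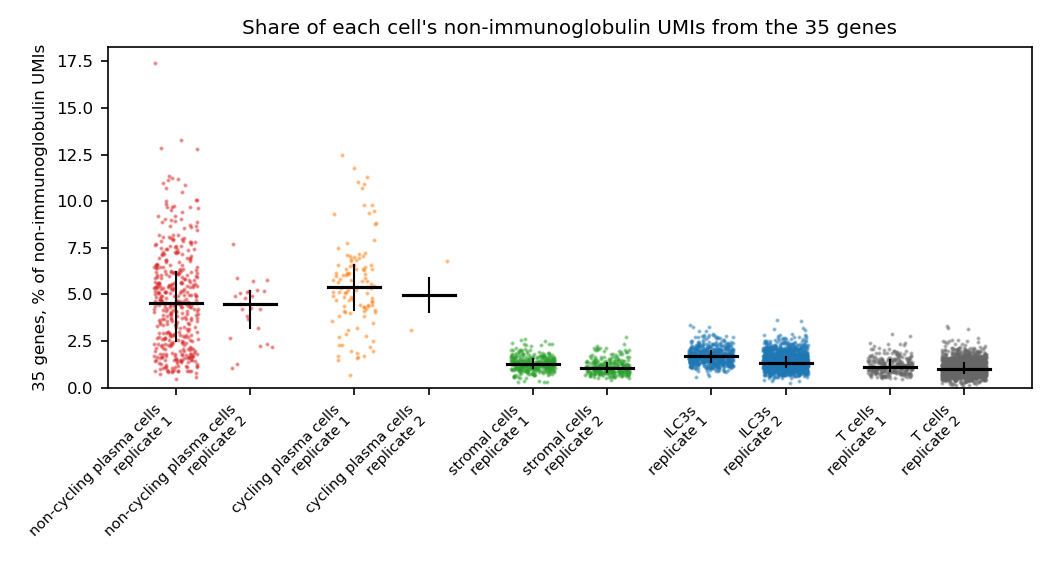
Share of each cell's non-immunoglobulin UMIs that came from the 35 genes (vertical axis, %), by class and replicate; each point is a cell with at least 500 such UMIs, the horizontal bar is the median and the vertical bar the interquartile range. Medians of the plasma cell classes lie between 4.48% and 5.41%, those of the other classes between 1.01% and 1.68%.

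In all, 28 of the 35 genes were higher in non-cycling plasma cells than in ILC3s, where 14.5% of all tested genes were higher. Against T cells 27 were higher, where 13.9% of all tested genes were. Against stromal cells 24 were higher, where 12.2% of all tested genes were. In the lower direction the background was 19.6% against ILC3s, where 1 of the 35 genes (Ern1) was lower, 17.4% against T cells, where 0 were lower in the edgeR fit, in DESeq2 or at an unadjusted edgeR p under 0.05, and 33.1% against stromal cells, where 1 (Pdia3) was lower. The median log2 fold of the 35 genes was 1.76, 2.05 and 1.63 against ILC3s, T cells and stromal cells, beside -0.14, -0.15 and -0.49 over all tested genes. The 3 comparisons share the plasma cell sums, so they are not independent of each other. A pair of patterns was defined: plasma-high genes were higher in plasma cells than in each of the other 3 classes (23 genes), and shared secretory genes were higher in both plasma and stromal cells than in each of ILC3s and T cells (5 genes, of which Hsp90b1 was also plasma-high). Of all 11492 tested genes, 5.84% had the plasma-high pattern and 4.3% the shared secretory one. Another 8 genes had neither pattern: Ssr1, Hspa5, Calr, Canx, Pdia3, Ern1, Atf4 and Ddit3. Of the 23 plasma-high genes, 17 kept that pattern under each of 11 other settings of the processing.

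**Figure D2:**
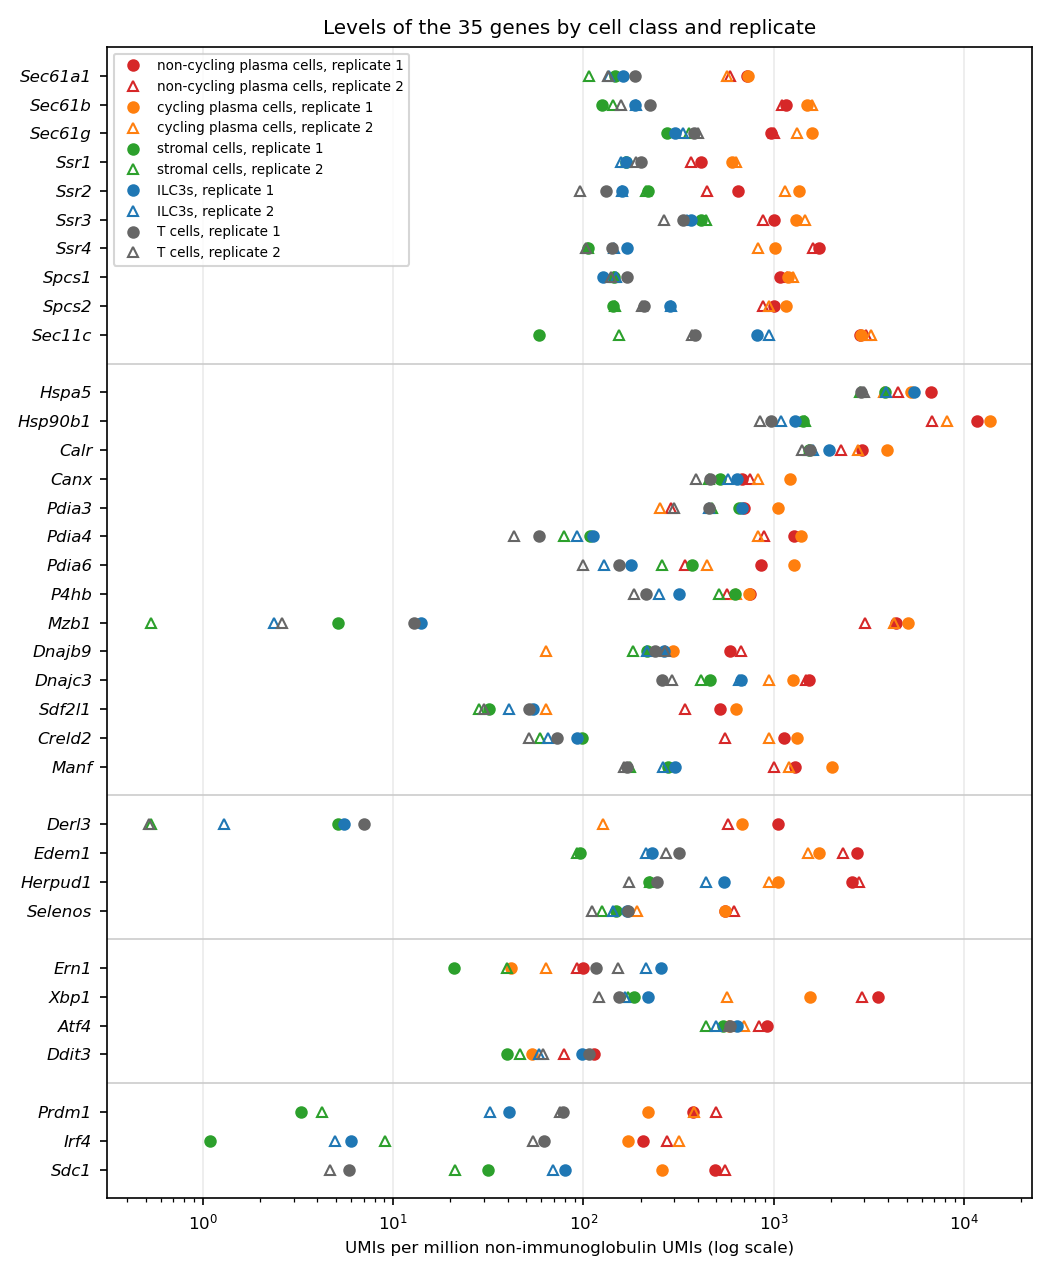
Level of each of the 35 genes (rows, grouped by role from translocation at the top to plasma cell transcription factors and surface at the bottom) in UMIs per 1000000 non-immunoglobulin UMIs on a log scale; filled circles are replicate 1, open triangles replicate 2, colours are the 5 classes, and sums with 0 UMIs are not drawn. For 29 of the 35 genes both non-cycling plasma cell sums lie above all stromal, ILC3 and T cell sums; the exceptions are Hspa5, Pdia3, Pdia6, P4hb, Ern1 and Ddit3. The same held for 14.5% of the 11385 tested genes that are not immunoglobulin genes.

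Among the genes of translocation and signal peptide cleavage, all 10 were higher in plasma cells than in ILC3s and 7 of the 10 were plasma-high. Ssr4, a subunit of the translocon-associated protein complex, was at 1727 and 1618 in non-cycling plasma cells, 105 and 105 in stromal cells, 170 and 146 in ILC3s and 142 and 103 in T cells. Its log2 fold over ILC3s was 3.25 ± 0.35 (approximate SE, 2 replicates; edgeR adjusted p = 5.76e-11). The partner subunit Ssr1 was at 415 and 368 in plasma cells and 158 to 200 in ILC3s and T cells, with a log2 fold of 1.13 ± 0.33 over ILC3s (edgeR adjusted p = 0.00591) and 0.77 ± 0.33 over T cells (edgeR adjusted p = 0.0700). Ssr2 and Ssr3 were higher in plasma cells than in both lymphocyte classes but did not pass against stromal cells (log2 fold 0.60 ± 0.34 and 0.40 ± 0.33). By these calls the 4 subunits of one complex fell into 3 different patterns, which depended on the processing. Ssr1, Ssr2 and Ssr3 were plasma-high under 3, 4 and 2 of 11 other settings. For all 4 genes both plasma cell sums lay above all stromal, ILC3 and T cell sums. Whether their folds differ from each other was not tested.

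The channel subunits Sec61a1, Sec61b and Sec61g were all plasma-high, with log2 folds over ILC3s of 1.98 ± 0.34, 2.42 ± 0.34 and 1.47 ± 0.34. Sec61b was at 1161 and 1105 in plasma cells against 125 to 224 in all 6 sums of stromal cells, ILC3s and T cells. Sec61g was at 967 and 1000 in plasma cells against 274 to 402, and it lost the plasma-high pattern under 3 of 11 other settings.

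Signal peptidase was higher in plasma cells in the subunits measured here, and its catalytic subunit Sec11c was graded over all 4 classes. Sec11c was at 2839 and 3079 in plasma cells, 818 and 947 in ILC3s, 388 and 372 in T cells and 58.4 and 154 in stromal cells. The 4 classes do not overlap in either replicate, and the order is the same in both. Plasma cells were higher than ILC3s by 1.60 ± 0.35 log2 units (edgeR adjusted p = 0.000233) and higher than stromal cells by 4.13 ± 0.39 (edgeR adjusted p = 2.79e-13). Stromal cells, which also secrete, were lower than ILC3s, with a log2 fold of -2.53 ± 0.37 (edgeR adjusted p = 3.59e-08). The structural subunit Spcs1 had no such gradient: it was at 1085 and 1171 in plasma cells and between 127 and 169 in all other sums.

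Among the 14 chaperones and disulfide isomerases, 8 were plasma-high, 3 were shared secretory with Hsp90b1 in both groups, and 4 had neither pattern. Mzb1, a chaperone partner of GRP94 found in B-lineage cells, was at 4416 and 3013 in plasma cells. In the 6 sums of stromal cells, ILC3s and T cells it was at 0.531 to 14.0, from 1 to 28 UMIs per sum. The log2 fold over ILC3s was 9.02 ± 0.51 (edgeR adjusted p = 1.96e-21). If every Jchain UMI in those classes were free RNA released from plasma cells, the same RNA would bring 104% to 181% of the observed Mzb1 UMIs in replicate 1 and 36.5% to 98.0% in replicate 2. Mzb1 outside plasma cells was therefore below that ceiling in replicate 1 and above it in replicate 2.

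Hsp90b1 (GRP94, the ER member of the HSP90 family) was at 11731 and 6815 in plasma cells, 1436 and 1470 in stromal cells, 1289 and 1088 in ILC3s and 965 and 846 in T cells. Its log2 fold was 2.77 ± 0.36 over ILC3s (edgeR adjusted p = 9.87e-09) and 1.87 ± 0.35 over stromal cells (edgeR adjusted p = 1.11e-05). Its partner in the ER lumen, the HSP70 chaperone Hspa5 (BiP), did not pass in any of the 3 comparisons. Hspa5 was at 6686 and 4513 in plasma cells, 5461 and 3886 in ILC3s, 3840 and 2840 in stromal cells and 2896 and 2983 in T cells. The plasma and ILC3 values overlap, and the log2 fold over ILC3s was 0.10 ± 0.33 (edgeR adjusted p = 0.848). After each cell was thinned to 1000 UMIs, 99.8% and 94.7% of ILC3s had an Hspa5 UMI, as did 79.5% and 69.2% of non-cycling plasma cells, whose UMIs are mostly immunoglobulin. DESeq2 called Hspa5 higher in plasma cells than in T cells (log2 fold 0.83), and with totals of all UMIs as library sizes it was lower than in ILC3s.

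The lectin chaperones that hold glycoproteins did not pass either. Calr (calreticulin) was at 2917 and 2250 in plasma cells and 1413 to 1964 in the other 3 classes, with log2 folds of 0.37 ± 0.33, 0.53 ± 0.34 and -0.01 ± 0.33 over ILC3s, T cells and stromal cells. Canx (calnexin) was at 684 and 750 in plasma cells and 389 to 646 elsewhere. The same held for Canx and Calr in stromal cells against ILC3s and T cells.

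The disulfide isomerases split. Pdia4 was plasma-high, at 1274 and 895 in plasma cells, 109 and 79.2 in stromal cells, 112 and 92.8 in ILC3s and 58.6 and 43.0 in T cells. Its log2 fold over T cells was 4.15 ± 0.38 (edgeR adjusted p = 2.18e-13). Pdia6 and P4hb were shared with stromal cells, as described further on. Pdia3, the isomerase that works with calreticulin and calnexin, was at 697 and 289 in plasma cells, 657 and 477 in stromal cells, 684 and 457 in ILC3s and 460 and 300 in T cells. It was lower in plasma than in stromal cells by the edgeR fit, with a log2 fold of -0.99 ± 0.37 (edgeR adjusted p = 0.0229), but this call was lost under 8 of 11 other settings, DESeq2 among them (log2 fold -0.89).

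The co-chaperones and small ER proteins were plasma-high with modest to large folds. Sdf2l1, part of a chaperone complex with BiP, was at 525 and 342 in plasma cells and 28.2 to 54.1 elsewhere, and Creld2, a UPR-induced ER protein, at 1132 and 553 against 51.5 to 98.5. Their log2 folds over ILC3s were 3.01 ± 0.36 and 3.23 ± 0.36. Manf, a secreted ER stress protein, had a log2 fold of 1.85 ± 0.35. The BiP co-chaperones Dnajb9 and Dnajc3 were nearer to the other classes, at 1.23 ± 0.35 and 1.02 ± 0.34 over ILC3s, and each lost its plasma-high pattern under some other settings (5 of 11 for Dnajb9 and 4 of 11 for Dnajc3).

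**Figure D3:**
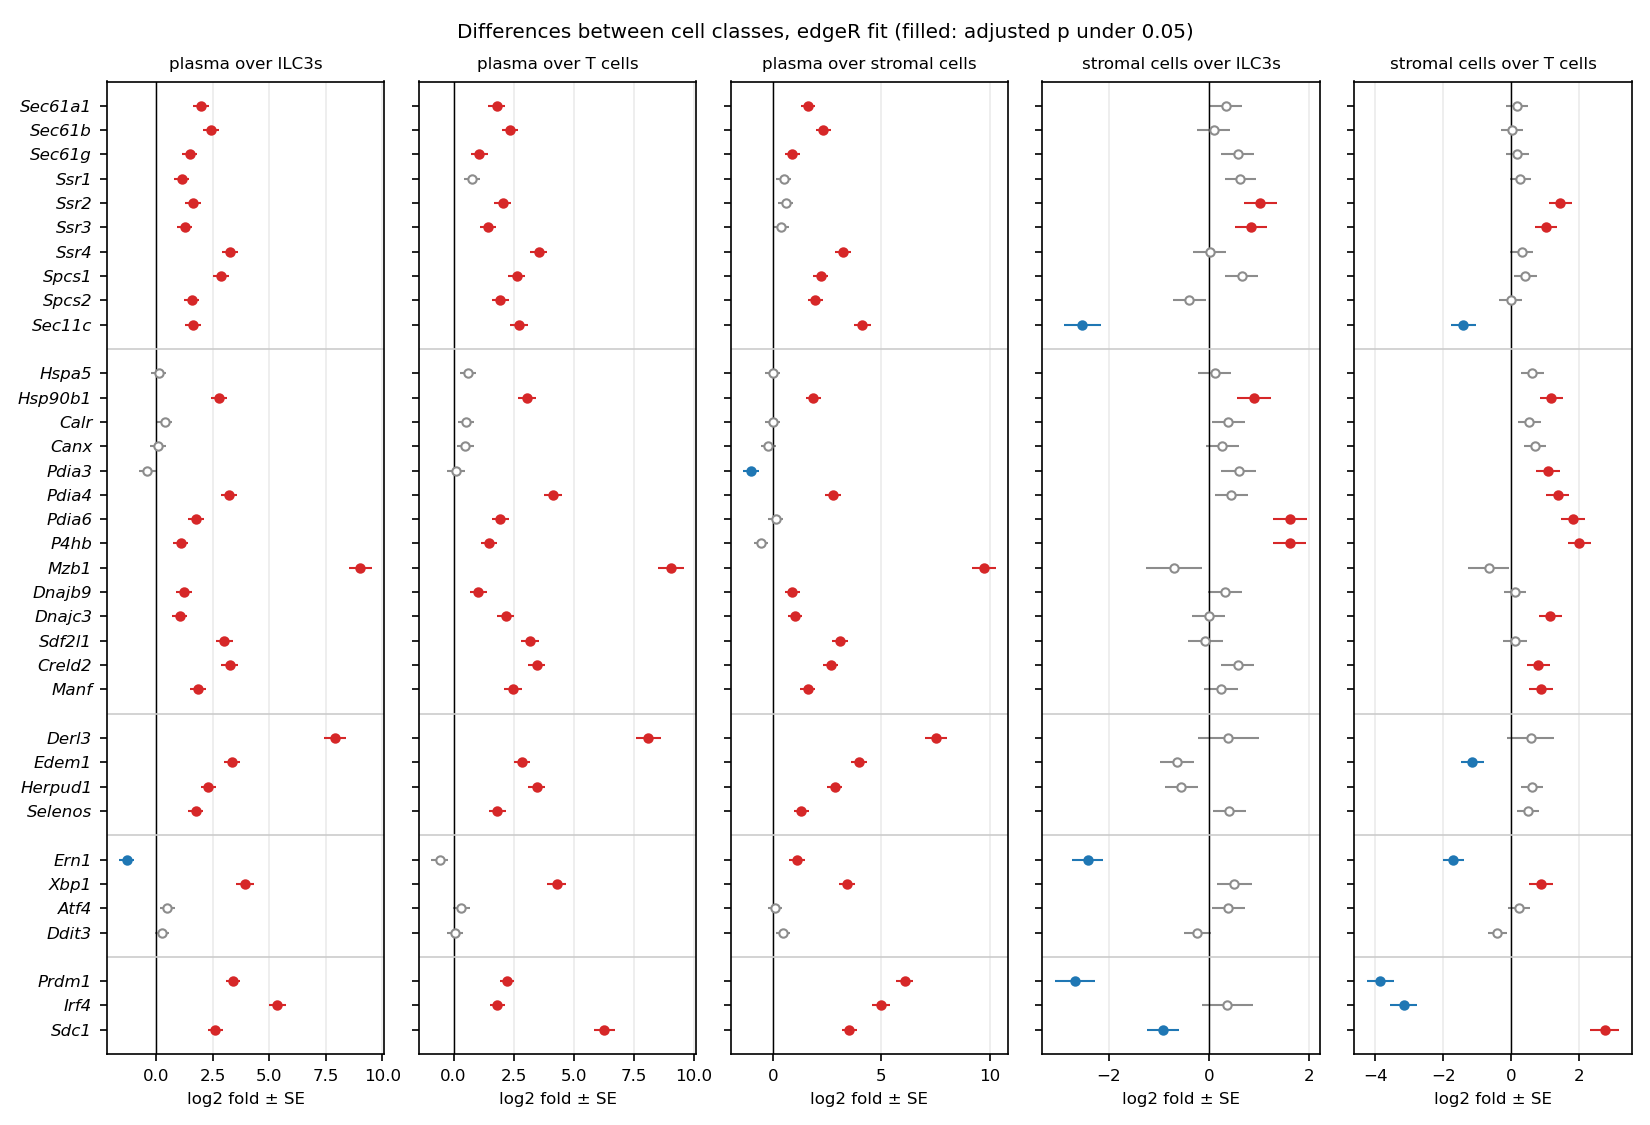
Log2 fold ± approximate SE of each gene in 5 comparisons of the edgeR fit (rows grouped by role as in the plot of levels; horizontal axes differ in range between panels); filled points passed an adjusted p of 0.05, red higher and blue lower, and open grey points did not pass. Plasma cells exceed the other classes for 28, 27 and 24 genes, while stromal cells exceed ILC3s for 5 genes and T cells for 12.

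All 4 genes of ER-associated degradation were plasma-high, and the group had the largest median log2 fold over stromal cells of the 3 ER groups (3.42, beside 1.79 for translocation and 0.96 for chaperones). Derl3, a derlin of the channel that returns misfolded chains to the cytosol, lies at chr10:75893413-75895941 on the plus strand of GRCm38. Derl3 was at 1055 and 579 in plasma cells and at 0.521 to 7.03 in the 6 sums of the other 3 classes. Its log2 fold over ILC3s was 7.92 ± 0.48 (edgeR adjusted p = 2.33e-20), and the Jchain ceiling accounted for 10.4% to 50.4% of its UMIs outside plasma cells.

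Edem1, which extracts mannose-trimmed glycoproteins for degradation, was at 2738 and 2329 in plasma cells, 320 and 271 in T cells, 230 and 213 in ILC3s and 95.9 and 93.0 in stromal cells. Stromal cells were the lowest in both replicates, and the log2 fold of plasma over stromal cells was 3.99 ± 0.37 (edgeR adjusted p = 1.13e-13). Herpud1, a scaffold of the degradation complex, was at 2593 and 2815 in plasma cells, 551 and 441 in ILC3s, 223 and 223 in stromal cells and 244 and 174 in T cells. Dendritic cells (44 and 6 cells) and macrophages (55 and 80 cells) were also listed, with Herpud1 at 1040 and 526 and at 656 and 592. Within each replicate these values lie above those of ILC3s, stromal cells and T cells. The dendritic cell value of replicate 2 rests on 6 cells and lies below the ILC3 value of replicate 1. Selenos, a selenoprotein of the same complex, had the smallest fold of the group, 1.73 ± 0.35 over ILC3s.

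Of the 4 UPR sensor and transcription factor genes, Xbp1 alone was plasma-high. Xbp1, the transcription factor whose mRNA IRE1 splices, was at 3546 and 2908 in plasma cells, 218 and 165 in ILC3s, 185 and 172 in stromal cells and 153 and 121 in T cells. Its log2 folds were 3.92 ± 0.39, 3.41 ± 0.38 and 4.30 ± 0.40 over ILC3s, stromal cells and T cells (edgeR adjusted p = 2.48e-12, 3.79e-11 and 2.75e-13). The counts are per gene and do not separate spliced from unspliced Xbp1 mRNA.

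Ern1, which encodes IRE1 itself, went the other way against ILC3s. Ern1 was at 257 and 214 in ILC3s, 116 and 152 in T cells, 100 and 92.1 in non-cycling plasma cells and 20.8 and 39.9 in stromal cells. ILC3s are highest and stromal cells lowest in both replicates, with no overlap. The log2 fold of plasma cells over ILC3s was -1.31 ± 0.33 (edgeR adjusted p = 0.00137), and that over stromal cells was 1.12 ± 0.36 (edgeR adjusted p = 0.00842). With the cell classes drawn from gates on single genes, the log2 fold of Ern1 over ILC3s was -0.61 and did not pass, while the call over ILC3s held under the other 10 settings. The call over stromal cells was lost with cells thinned to 1000 UMIs, with those gates and with library totals of all UMIs.

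Atf4 and Ddit3 (CHOP), the transcription factors of the PERK branch, did not pass in any comparison of plasma cells with another class. Atf4 was at 926 and 842 in plasma cells and 444 to 643 elsewhere, with a log2 fold of 0.48 ± 0.33 over ILC3s (edgeR adjusted p = 0.273). Ddit3 was at 114 and 78.9 in plasma cells, where replicate 2 rests on 6 UMIs, and 39.8 to 107 elsewhere. Among other genes of this branch, which are not among the 35, 7 of 13 tested PERK and ATF4 output genes were higher in plasma cells than in ILC3s and 1 was lower. Of all tested genes, 14.5% were higher and 19.6% lower. Eif2ak3, which encodes PERK, was at 366 and 421 in plasma cells and 10.6 to 46.8 in the other 3 classes (log2 fold over ILC3s 4.16 ± 0.32, edgeR adjusted p = 4.15e-16). Chac1, a glutathione-degrading enzyme known as a target of ATF4 and CHOP, was at 136 and 105 in plasma cells, and at no more than 0.521 in the other 3 classes. Against T cells 7 of the 13 were higher and 1 was lower, where 13.9% and 17.4% of all tested genes were. Against stromal cells 4 were higher and 6 were lower in plasma cells, with a median log2 fold of -0.59 beside -0.49 over all tested genes. In that comparison 12.2% of all tested genes were higher and 33.1% lower. Nupr1, a stress-induced transcriptional regulator, was at 321 and 273 in stromal cells, 18.6 and 26.3 in plasma cells and 2.34 to 7.52 in ILC3s and T cells.

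The transcription factors and surface marker of plasma cells were plasma-high. Among the other 3 classes, T cells had the highest levels of Prdm1 and Irf4, and ILC3s had the highest level of Sdc1, in both replicates. Prdm1 (Blimp-1, the repressor that drives plasma cell differentiation) was at 379 and 500 in plasma cells, 78.5 and 75.8 in T cells, 40.6 and 32.4 in ILC3s and 3.28 and 4.25 in stromal cells. Irf4, which acts upstream of Prdm1 in B cells, was at 205 and 276 in plasma cells, 62.1 and 54.7 in T cells, 6.01 and 4.98 in ILC3s and 1.09 and 9.04 in stromal cells. Macrophages had Prdm1 at 136 and 152. Among the T cell clusters of replicate 2, Prdm1 ran from 42.8 in a cluster with Trdc among its leading genes to 133 in one with Il1rl1, Ifng and Il21 among them.

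Sdc1 (syndecan-1, CD138, the proteoglycan by which plasma cells are commonly sorted) was at 495 and 553 in plasma cells, 79.7 and 69.0 in ILC3s, 31.4 and 21.3 in stromal cells and 5.86 and 4.68 in T cells. ILC3s lie above T cells in both replicates, a difference that was not tested. Within the ILC3s of replicate 2, Sdc1 was at 97.7 in one large cluster and 33.4 in the other, which also raised natural killer cell markers. Jchain accounted for at most 1.54% of the Sdc1 UMIs in ILC3s as free plasma cell RNA.

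Promoters were examined because many of these genes share an element through which ATF6 and XBP1 act, the ER stress response element (ERSE): CCAAT, then 9 bases of any kind, then CCACG. RefSeq promoters (250 bases before to 50 after the annotated start, GRCm38.p6) were given for 30 of the 35 genes; Sec11c, Sec61a1, Mzb1, Ssr2 and Manf had no entry. On either strand, ERSE occurred in 8 of the 30 (26.7%) and in 37 of all 27025 gene symbols with a promoter (0.137%). The matches follow, each 5′ to 3′ in the orientation of the motif with its fixed bases in capitals; Hsp90b1 held a pair of them.
Hspa5, chr2:34772025-34772043, plus strand: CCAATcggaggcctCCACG
Hsp90b1, chr10:86705638-86705656, minus strand: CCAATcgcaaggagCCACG
Hsp90b1, chr10:86705533-86705551, plus strand: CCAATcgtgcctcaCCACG
Calr, chr8:84847075-84847093, plus strand: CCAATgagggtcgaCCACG
Canx, chr11:50325800-50325818, minus strand: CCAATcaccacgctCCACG
Pdia6, chr12:17266491-17266509, plus strand: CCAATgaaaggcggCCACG
Dnajc3, chr14:118937827-118937845, plus strand: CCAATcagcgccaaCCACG
Creld2, chr15:88819520-88819538, minus strand: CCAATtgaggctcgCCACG
Derl3, chr10:75893242-75893260, minus strand: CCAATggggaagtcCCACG

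The 8 genes with ERSE did not share one expression pattern. Hsp90b1, Dnajc3, Creld2 and Derl3 were plasma-high, Pdia6 was shared secretory, and Hspa5, Calr and Canx had neither pattern. The shorter ERSE-II (ATTGG, any base, CCACG) was found in the promoter of Herpud1 alone among the 30 (12 of all 27025 symbols, 0.0444%), and an ATF4 composite element, TGATGNAA, also in Herpud1 alone (4.51% of all symbols). The UPR element TGACGTGG was in none of the 30 (0.714% of all symbols), which says only that these letters are not in these windows.
Herpud1, chr8:94386377-94386387, plus strand: ATTGGgCCACG

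Derl3 and Hspa5 show the contrast at full length: the ERSE lies 156 bases before the RefSeq start of Derl3 and 65 before that of Hspa5, and Derl3 was nearly absent outside plasma cells while Hspa5 was abundant in every class. The promoters are printed on the gene's strand with the fixed ERSE bases in capitals.
Derl3, chr10:75893148-75893447, plus strand: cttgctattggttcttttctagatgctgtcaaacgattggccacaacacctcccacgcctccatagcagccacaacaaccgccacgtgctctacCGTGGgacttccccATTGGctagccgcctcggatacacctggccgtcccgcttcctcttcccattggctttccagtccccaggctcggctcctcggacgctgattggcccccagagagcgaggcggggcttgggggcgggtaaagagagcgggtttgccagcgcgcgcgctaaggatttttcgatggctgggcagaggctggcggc
Hspa5, chr2:34771840-34772139, plus strand: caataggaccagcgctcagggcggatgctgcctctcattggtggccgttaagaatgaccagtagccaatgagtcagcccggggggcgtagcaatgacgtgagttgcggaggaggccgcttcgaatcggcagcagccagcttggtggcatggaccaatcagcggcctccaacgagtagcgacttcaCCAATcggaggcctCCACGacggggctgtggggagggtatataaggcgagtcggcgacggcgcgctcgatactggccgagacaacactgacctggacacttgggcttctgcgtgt

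Stromal cells secrete too, and few of the 35 genes were higher in them than in lymphocytes. Against ILC3s, 5 of the 35 were higher, where 34.1% of all tested genes were, and 4 were lower, where 17.9% were. Against T cells, 12 were higher, where 34.6% of all tested genes were, and 5 were lower, where 18.4% were. Of the 14 chaperones and disulfide isomerases, stromal cells were higher than T cells for 8 and than ILC3s for 3, and lower for 0 in either comparison. The share of the 35 genes that was higher in stromal cells was thus at or below the share of all genes. The 2 comparisons share the stromal cell sums. With immunoglobulin genes left out before scaling, the calls among all genes moved from 65.6% to 53.3% higher against ILC3s and from 65.3% to 53.6% against T cells, and the median fold of all genes fell by 0.29 and 0.28 on the log2 scale.

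The 5 shared secretory genes were Ssr2, Ssr3, Hsp90b1, Pdia6 and P4hb. P4hb, which is protein disulfide isomerase and also the β subunit of collagen prolyl 4-hydroxylase, was at 630 and 517 in stromal cells, 753 and 566 in plasma cells, 317 and 251 in ILC3s and 213 and 185 in T cells. Stromal and plasma cells overlap, although the level was higher in plasma cells within each replicate. The fitted log2 fold of plasma over stromal cells had the opposite sign, -0.54 ± 0.33 (edgeR adjusted p = 0.193), beside a median of -0.49 over all tested genes. That it did not pass does not show that they are alike. Over T cells, stromal cells were higher by 2.01 ± 0.34 (edgeR adjusted p = 8.08e-07). Pdia6 was at 373 and 260 in stromal cells, 861 and 342 in plasma cells, 177 and 129 in ILC3s and 153 and 100 in T cells. By the fit, stromal cells were higher than ILC3s by 1.62 ± 0.35 (edgeR adjusted p = 6.89e-05). These fitted folds of P4hb and Pdia6 for stromal cells over lymphocytes lie above the plain ratios of their levels. Pdia6 kept the shared pattern under 10 of 11 other settings and P4hb under 8, while Ssr2 kept it under 6, Ssr3 under 4 and Hsp90b1 under 2.

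Genes of collagen modification and export, which were not among the 35, gave the opposite picture. Of 13 tested, 12 were lower in plasma than in stromal cells, 12 were higher in stromal cells than in ILC3s and 13 higher than in T cells. The shares of all tested genes in these comparisons were 33.1%, 34.1% and 34.6%. Serpinh1 (HSP47, the collagen chaperone) was at 1661 and 1463 in stromal cells, 33.1 and 13.2 in plasma cells and 8.52 to 18.7 in ILC3s and T cells; its log2 fold for plasma over stromal cells was -6.51 ± 0.48 (edgeR adjusted p = 5.12e-17). Col1a1 itself was at 361 and 158 in non-cycling plasma cells, above its level in ILC3s and T cells, and the part of stromal RNA in the plasma cell values was not tested.

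Other parts of the pathway were called in both secretory classes, or mainly in plasma cells. Of 20 genes of ER to Golgi transport, 13 were higher in plasma cells than in ILC3s, where 14.5% of all tested genes were. In stromal cells 14 were higher than in ILC3s, where 34.1% of all tested genes were. In plasma cells 5 were higher and 3 lower than in stromal cells, where 12.2% and 33.1% of all tested genes were. Lman1, a cargo receptor for glycoproteins, was at 854 and 947 in plasma cells, 169 and 145 in stromal cells and 26.8 to 59.6 in ILC3s and T cells. The KDEL receptor gene Kdelr3 was higher in stromal than in plasma cells, at 207 and 148, against 48.3 and 13.2 in plasma cells and 1.04 to 5.01 in lymphocytes. Of 12 oligosaccharyltransferase genes, which attach N-glycans, 9 were higher and 1 lower in plasma cells than in ILC3s. Of all tested genes 14.5% and 19.6% were. In plasma cells 9 of the 12 were higher than in T cells. Against stromal cells 4 were higher and 2 lower, where 12.2% and 33.1% of all tested genes were. Stromal cells were also higher than T cells for 9 of the 12 and lower for 0, and higher than ILC3s for 4 and lower for 1. Of all tested genes, 13.9% were higher in plasma than in T cells, and 34.6% in stromal than in T cells. In stromal cells 18.4% were lower than in T cells, and 34.1% were higher and 17.9% lower than in ILC3s. Tusc3, a subunit of this complex, was at 17.0 and 26.3 in plasma cells, 65.7 and 62.2 in stromal cells and 56.6 and 70.7 in ILC3s, and was lower in plasma than in stromal cells (log2 fold -2.53 ± 0.40, edgeR adjusted p = 3.43e-07).

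Of 14 other translocation genes, 11 were higher in plasma cells than in ILC3s and 9 than in stromal cells. Of all tested genes 14.5% and 12.2% were. Tram2, a translocation-associated membrane protein that is also known from collagen-producing cells, was at 497 and 566 in plasma cells, 54.0 and 27.6 in stromal cells, 2.00 and 1.30 in ILC3s and 9.37 and 6.51 in T cells. It was higher in plasma than in stromal cells (log2 fold 2.93 ± 0.32, edgeR adjusted p = 2.65e-11) and in stromal cells than in ILC3s (5.15 ± 0.44, edgeR adjusted p = 3.89e-15). Of 17 other ER folding genes, 10 were higher and 2 lower in plasma cells than in ILC3s, where 14.5% and 19.6% of all tested genes were. Against stromal cells 8 were higher and 4 lower, where 12.2% and 33.1% of all tested genes were. Stromal cells were higher than ILC3s for 8 of the 17 and lower for 2, and higher than T cells for 11 and lower for 1. Of all tested genes, 34.1% and 34.6% were higher in these stromal cell comparisons, and 17.9% and 18.4% were lower. Txndc5, a disulfide isomerase, was at 3844 and 3684 in plasma cells, 250 and 183 in stromal cells, and 19.0 to 43.1 in ILC3s and T cells. Fkbp11, a prolyl isomerase, was at 268 and 132 in plasma cells, 12.4 and 10.6 in stromal cells and 0.216 to 1.17 in ILC3s and T cells.

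Of 13 other genes of ER-associated degradation, 10 were higher in plasma cells than in ILC3s and 8 than in stromal cells, and 0 were called lower in either comparison. Of all tested genes, 14.5% and 12.2% were higher, and 19.6% and 33.1% lower. Edem2, an ER mannosidase, was at 716 and 724 in plasma cells and 13.8 to 24.9 in the other 3 classes, with a log2 fold over ILC3s of 4.73 ± 0.36 (edgeR adjusted p = 1.51e-16). Sel1l, the adaptor of the Hrd1 ubiquitin ligase, was at 659 and 881 in plasma cells against 33.1 to 117. Among the other UPR sensors and ER-bound transcription factors, 4 of 8 tested were higher in plasma cells than in ILC3s, where 14.5% of all tested genes were. In stromal cells 4 of 8 were higher than in ILC3s, where 34.1% of all tested genes were. Creb3l2, an ER-bound factor cleaved like ATF6, was at 268 and 276 in plasma cells, 88.3 and 66.5 in stromal cells and 11.7 to 28.1 in ILC3s and T cells.

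The non-cycling plasma cells lay mainly in a pair of clusters that differed in these genes. In replicate 1, 252 non-cycling plasma cells of the first cluster (cluster 7, median 9129 UMIs) gave a median of 5.71% of non-immunoglobulin UMIs to the 35 genes, and 162 cells of the second (cluster 12, median 2434 UMIs) gave 2.10%. Their immunoglobulin shares were alike, with medians of 59.1% and 62.3%. The clusters were also apart in RNA quality and in RNA of other cells: the median mitochondrial share was 3.87% and 13.2%, the nuclear RNA Malat1 was at 5157 and 43139, and Col3a1 at 387 and 1306. Cluster 12 raised 9 plasma cell and 9 stromal cell markers, of which 5 and 0 were among its 10 leading genes. Cluster 7 raised 11 and 0. The part of depth, RNA quality and free RNA in what follows was not tested, and replicate 2 had only 2 cells of cluster 12 deep enough to be measured. The values below are sums of 1 replicate with 95% exact Poisson intervals that cover counting error only.

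The level was higher in cluster 7 than in cluster 12, with intervals apart, for 28 of the 35 genes, and the reverse held for none of them. By the same rule 9.81% of the 11385 tested genes other than immunoglobulin genes were above in cluster 7 and 3.91% above in cluster 12. Spcs1 and Sec61b had the largest ratios among the 35 genes, 11.8 and 10.9. Spcs1 was at 1250 (1182 to 1321) in cluster 7 and 106 (62.6 to 167) in cluster 12, and Sec61b at 1336 (1266 to 1410) and 123 (76.3 to 188). The intervals of cluster 12 overlap those of the ILC3s of cluster 4, the cluster that held most ILC3s of replicate 1, where Spcs1 was at 129 and Sec61b at 185. Among the transcription factors, Xbp1 was at 3852 and 1737, with intervals apart. Prdm1 was at 369 and 440, Irf4 at 215 and 147, Atf4 at 906 and 1039 and Ddit3 at 109 and 147, each with overlapping intervals.

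Some of the genes were above the ILC3s of cluster 4 in cluster 12 as well. There Derl3 was at 534, Mzb1 at 880 and Xbp1 at 1737, beside 5.85, 14.3 and 221 in cluster 4. Herpud1 was at 2693 and 2001 in clusters 7 and 12. By contrast Sdc1 was at 559 in cluster 7 and 117 in cluster 12, beside 83.4 in cluster 4. In all, 16 of the 35 genes were above the ILC3s of cluster 4 in cluster 12 with intervals apart, where 8.99% of the 11385 genes were, and 7 were below, where 15.1% were. Without cluster 12 the counts of genes higher in plasma cells than in ILC3s, T cells and stromal cells stayed at 28, 27 and 24.

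**Figure D4:**
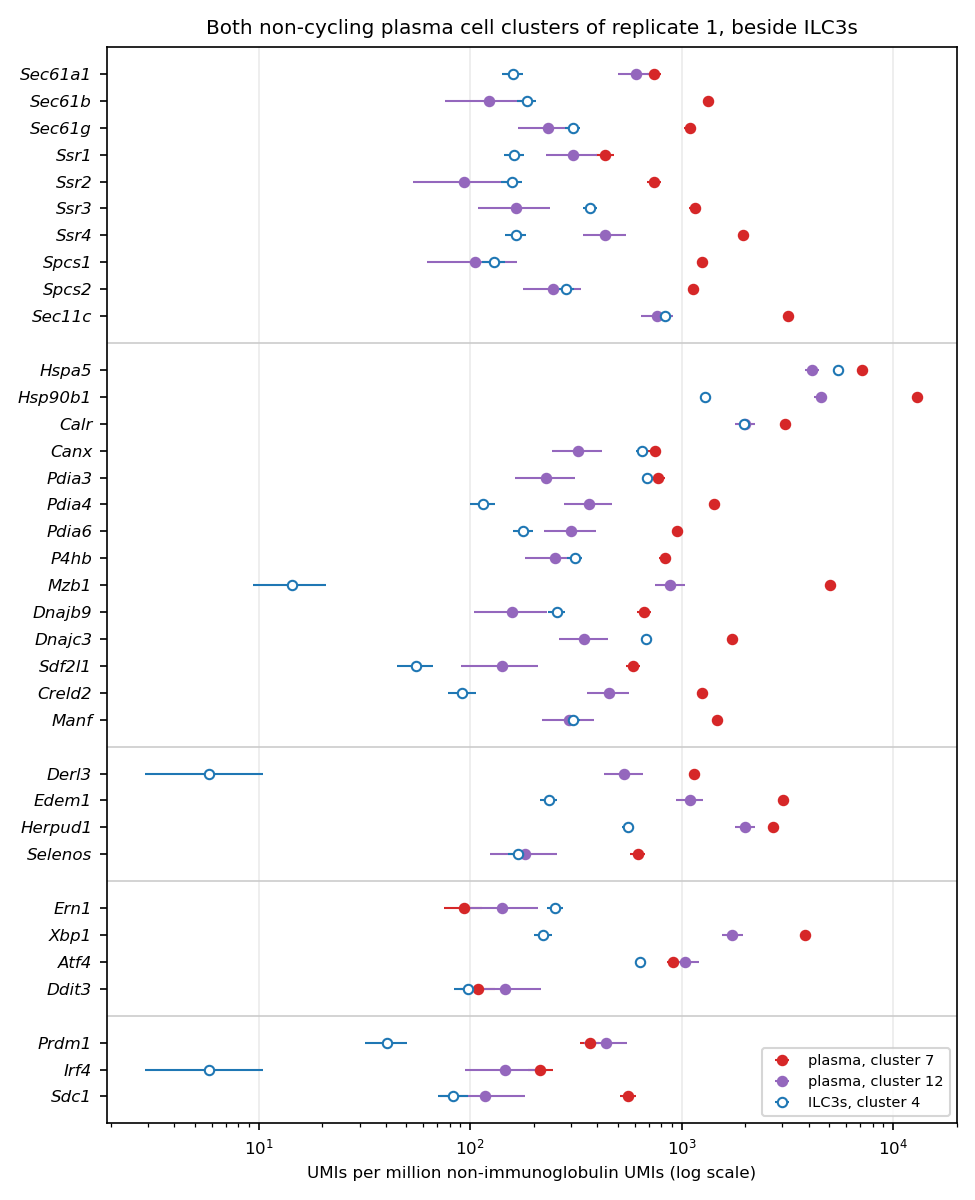
Levels in UMIs per 1000000 non-immunoglobulin UMIs (log scale) in replicate 1, for non-cycling plasma cells of cluster 7 (red) and cluster 12 (purple) and for the ILC3s of cluster 4 (open blue); bars are 95% exact Poisson intervals for counting error, and rows are grouped as in the plot of levels. Cluster 7 lies above cluster 12 with intervals apart for 28 of the 35 genes, and Prdm1, Irf4, Atf4, Ddit3 and Ern1 are among the 7 others.

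Cycling plasma cells, defined by at least 3 of 20 cell cycle genes, gave a similar share of their non-immunoglobulin UMIs to the 35 genes, a median of 5.41% in the 110 cells of replicate 1 and 4.97% in the 2 cells of replicate 2. By the edgeR fit none of the 35 was higher in cycling than in non-cycling plasma cells, where 2.4% of all tested genes were, and DESeq2 also gave 0; at an unadjusted p under 0.05 there was 1 (Ssr2). In the other direction 9 were lower, where 3.83% of all tested genes were. These were Ssr4, Dnajb9, Derl3, Herpud1, Ern1, Xbp1, Ddit3, Prdm1 and Sdc1. The median log2 fold of the 35 genes was -0.26, beside -0.29 over all tested genes.

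Xbp1 fell from 3546 and 2908 in non-cycling to 1559 and 571 in cycling plasma cells, with a log2 fold of -1.81 ± 0.37 (edgeR adjusted p = 0.000553). Herpud1 fell from 2593 and 2815 to 1057 and 952, with a log2 fold of -1.77 ± 0.36 (edgeR adjusted p = 0.000419). Cycling values lie below non-cycling ones in both replicates for both genes, although replicate 2 rests on 9 and 15 UMIs. The edgeR call of Xbp1 was lost without the replicate block (log2 fold -1.72, edgeR adjusted p = 0.0575), with cells thinned to 1000 UMIs (-1.04, edgeR adjusted p = 0.365) and with library totals of all UMIs (-0.74, edgeR adjusted p = 0.110). That of Herpud1 was lost with thinned cells (-1.38, edgeR adjusted p = 0.187) and with those totals (-0.65, edgeR adjusted p = 0.152). Sdc1 and Ddit3 had 0 UMIs in the 2 cycling cells of replicate 2. Ssr4 fell from 1727 and 1618 to 1022 and 825, a call lost under 5 other settings. Its complex partners did not pass: Ssr2 was at 1359 and 1142 in cycling cells beside 647 and 447, and Ssr3 at 1309 and 1460 beside 1010 and 881.

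Several chaperones were also at like or higher levels in cycling cells and did not pass. Mzb1 was at 5115 and 4315 beside 4416 and 3013, Hsp90b1 at 13718 and 8123 beside 11731 and 6815, and Canx at 1219 and 825 beside 684 and 750. Outside the 35 genes, Eif2ak3 fell from 366 and 421 to 114 and 63.5 (log2 fold -2.12 ± 0.36, edgeR adjusted p = 2.15e-05). Txndc5 fell from 3844 and 3684 to 2299 and 1460 (edgeR adjusted p = 0.00662), a call lost under 4 other settings.

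**Figure D5:**
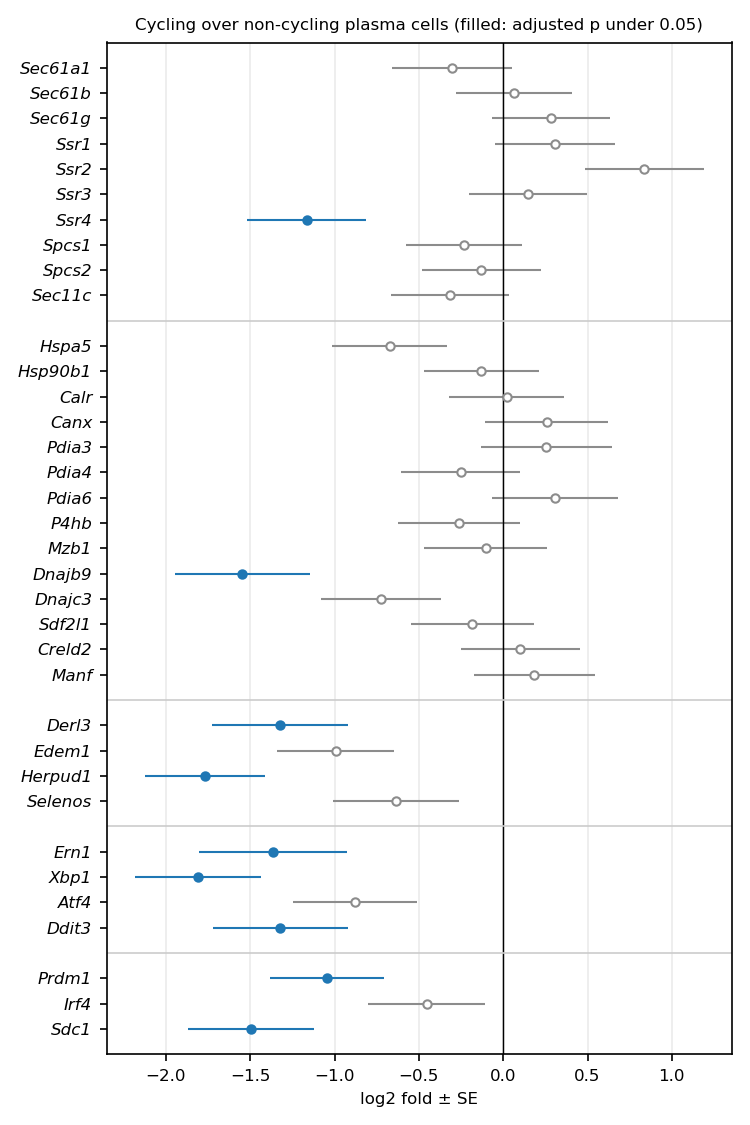
Log2 fold ± approximate SE of cycling over non-cycling plasma cells for each gene (rows grouped as in the plot of levels); filled blue points passed an adjusted p of 0.05. The 9 genes that passed are all lower, with folds from -1.05 (Prdm1) to -1.81 (Xbp1), and replicate 2 contributes 2 cycling cells.

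The count of 9 lower genes depends on the processing. Without the replicate block it was 1 (Herpud1), with cells thinned to 1000 UMIs 0, and with no filter on low counts 4. With immunoglobulin genes left out before scaling it was 4, where 196 of all 11181 genes were lower. With DESeq2 it was 5, where 160 of 11492 genes were. With library totals of all UMIs 0 were lower and 15 were higher, where 110 and 2075 of 11492 genes were. Those totals include the immunoglobulin UMIs, whose share differs between the classes as given above. With immunoglobulin genes left out, the calls among all genes moved from 38.5% to 66.2% higher. In replicate 1 alone the median log2 fold of the 35 genes was -0.17, and in replicate 2 alone -0.72.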

How the data were processed

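Cells carrying sample tag 4 of the capture of 8064 cells (replicate 1, 2077 cells) and tag 2 of that of 15793 cells (replicate 2, 4532 cells) were taken from the deposited tag calls. The authors deposited whole-number UMI counts per cell and gene, made per the file headers with the BD WTA Multiplex Rhapsody pipeline 1.8 on GRCm38 with GENCODE vM19; HISAT2 2.0.5 and Bowtie2 are listed in the submitters' processing notes. The use of strand in counting is not given in the sources used here, and 13 of the 35 genes overlap another gene, 4 of them on the same strand. Cells under 300 genes or over 25% mitochondrial UMIs were left out, Scrublet removed 41 and 5 cells, and Leiden clusters (scanpy 1.11.5) were named from marker genes. After the cells were seen, plasma cells were also required to have at least 10% immunoglobulin UMIs and the other classes less. This removed 16 of 541 and 36 of 64 cells of the plasma clusters. In replicate 2 it removed 25 of 27 cells of cluster 15, which held 74.5% of the cycling plasma cells of replicate 1. It also removed 6 and 3 stromal cells, 11 and 2 ILC3s and 4 and 2 T cells. Levels of plasma cell genes outside plasma cells, and the Jchain ceiling, are therefore given without those cells. The classes without this check are an alternative.

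UMI counts were summed per class and replicate and tested with edgeR 4.0.16 (quasi-likelihood F test, TMM, filterByExpr, two-sided). Sums of the same replicate come from the same tagged cells, so replicate was a block; their deviations from the class means correlated with r between 0.0721 and 0.255 over 10 pairs. On simulated counts for plasma cells over ILC3s (10510 genes), 99% of 4-fold and 27% of 2-fold changes were recovered. Of 130 calls there, 4 were false. The 200 changed genes were taken from those with at least 50 counts per 1000000, so recovery below that level was not tested. Whether these rates hold with the TMM factors and immunoglobulin shares of the real sums was not tested either. The 35 genes, the other lists and the rule for naming genes (all 35, and of each other list at most the 2 with the smallest adjusted p per comparison) were chosen with earlier results of these data known. Poisson intervals cover counting error only. One element of the genotype, shared by all samples, is not reported here.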

Additional observations from a re-analysis of the deposited data

How the results depend on the processing

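Counts are of the 35 genes. With library totals of all UMIs in place of TMM, an alternative added after seeing the data, 17 were higher in plasma cells than in ILC3s, 6 were lower than in ILC3s, 3 lower than in T cells and 3 lower than in stromal cells, 2 were higher and 8 lower in stromal cells than in ILC3s, 7 were higher in stromal cells than in T cells, 15 were higher and 0 lower in cycling than in non-cycling plasma cells, and 0 were shared secretory. Of all 11492 genes under that scaling, 730 were higher and 6466 lower in plasma cells than in ILC3s. In plasma cells 5674 were lower than in T cells and 5743 lower than in stromal cells. In stromal cells 2691 were higher and 3986 lower than in ILC3s, and 3115 were higher than in T cells. In cycling over non-cycling plasma cells 2075 were higher and 110 lower. That scaling also shifts the median of all genes by -1.10 on the log2 scale for plasma cells over ILC3s. It turned the direction over ILC3s of Hspa5 (-0.99), Calr (-0.72), Canx (-1.03), P4hb (-0.025), Dnajc3 (-0.072) and Ddit3 (-0.89), over T cells of Pdia3 (-0.90) and Ddit3 (-0.97), and in cycling cells of Spcs1 (0.90), Spcs2 (0.98), Hsp90b1 (1.03) and Mzb1 (1.17).

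The single gene lower in plasma than in stromal cells, Pdia3, became 0 with DESeq2, with no filter on low counts, without the replicate block, with immunoglobulin genes left out, with cells thinned to 1000 UMIs, with classes from gates, without the immunoglobulin check and without the cycling sums. Stromal cells were higher than ILC3s for 2 genes with no filter, with immunoglobulin genes left out, with gates and without the immunoglobulin check, and for 3 without the cycling sums; they were higher than T cells for 6 with no filter, 5 with gates and 4 without the immunoglobulin check. With gates, 0 genes were lower in plasma cells than in ILC3s, 8 were lower in stromal cells than in ILC3s, and Irf4 turned to -1.49 in stromal cells over ILC3s.

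Without the replicate block, 1 gene was lower in cycling cells; with DESeq2 it was 5, with no filter 4, with immunoglobulin genes left out 4 and with thinned cells 0. Shared secretory genes numbered 2 with no filter, with immunoglobulin genes left out, with thinned cells and with gates, 1 without the immunoglobulin check and 3 without the cycling sums. The cause of these changes was not tested. With 1 replicate left out there were no residual degrees of freedom and so no test. The 199 called fold changes of single genes kept their direction with either replicate left out. With 2 replicates a call is hard to reach unless they agree in direction, so this agreement is largely fixed by the call. The 199 also include genes of the other lists that were named for their smallest adjusted p. Of the 94 not called, 78 kept their direction without replicate 1 and 82 without replicate 2. Replicate 2 held 26 non-cycling and 2 cycling plasma cells, which limits every plasma cell value.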
